A study of Mus musculus with 50 samples.

Results

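The 10 iron handling genes described here, Ftl1, Fth1, Slc40a1, Cp, Tfrc, Slc11a2, Slc11a1, Hmox1, Hp and Lcn2, were found by their symbols in the gene tables of 50 mice, where each symbol occurred once among 53700 genes. All 10 passed the filter of at least 1 CPM in 3 or more mice (a gene's count relative to the summed count of its library, unscaled for the filter and otherwise scaled between libraries), as did 16696 genes in all, but Hp and Lcn2 passed only through mice that had received lipopolysaccharide (LPS). RNA came from microglia, the resident macrophages of the brain, sorted as CD45int CD11b+ cells from the hippocampus of male C57BL/6J mice. Pups were reared from P2 to P9 (postnatal day) with limited bedding and nesting material as early-life stress (ELS) or in control conditions (CTR). At P9 there were 12 CTR and 13 ELS mice, without injection. At P200 the mice had an intraperitoneal injection of PBS (7 CTR and 6 ELS mice) or of LPS at 1 mg/kg (7 CTR and 5 ELS mice) and were killed 3 hours later. Myelin was removed with Percoll in the adult brains but not at P9, and the P9 and P200 mice were separate cohorts. Age therefore cannot be told apart from this step, from the cohort or from the injection of the adults. The leading part of the mouse numbers, which the labels do not define, was treated as the nest, with separate series at P9 and P200. Read in this way, the mice came from 4 or 5 nests per group. Each nest then belonged to 1 rearing condition, so that mice of a nest shared their rearing.

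Cells take up transferrin-bound iron through the transferrin receptor (Tfrc), move it out of endosomes through Slc11a2 (DMT1), store it in a shell of ferritin light (Ftl1) and heavy (Fth1) chains, and release it through ferroportin (Slc40a1), the only known iron exporter of mammalian cells. Macrophages also recover iron from heme, which heme oxygenase 1 (Hmox1) opens, and during infection they tend to retain iron and secrete proteins that withhold it from bacteria, such as lipocalin 2 (Lcn2), which binds bacterial siderophores. Ferritin, ferroportin and the transferrin receptor are also regulated after transcription: iron regulatory proteins bind a hairpin in the RNA, the iron-responsive element (IRE), which in a 5′ UTR blocks translation and in a 3′ UTR protects the transcript. Counts of RNA do not show the first of these layers.

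Matches to a strict form of the hairpin are shown because they divide the members into groups that the counts can be set against. Each line gives 30 bases of the canonical transcript (GENCODE annotation of GRCm39, the build of the count tables) in DNA letters from 5′ to 3′. Capitals mark the loop. The motif searched was CNNNNNCAGTGN on the transcript strand, in which the 5 bases after the first C had to pair with the 5 bases after the loop.
Slc40a1, 5′ UTR, chr1:45964624-45964653, minus strand: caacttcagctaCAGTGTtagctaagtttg
Ftl1, 5′ UTR, chr7:45109202-45109231, minus strand: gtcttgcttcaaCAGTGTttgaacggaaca
Fth1, 5′ UTR, chr19:9960096-9960125, plus strand: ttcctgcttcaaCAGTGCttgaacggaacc
Tfrc, 3′ UTR, chr16:32450037-32450066, plus strand: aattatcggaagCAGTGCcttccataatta
Tfrc, 3′ UTR, chr16:32450416-32450445, plus strand: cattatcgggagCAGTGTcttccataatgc
Tfrc, 3′ UTR, chr16:32450481-32450510, plus strand: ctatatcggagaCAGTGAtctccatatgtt
Tfrc, 3′ UTR, chr16:32450528-32450557, plus strand: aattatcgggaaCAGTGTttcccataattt
A match of this kind was held by the 5′ UTR of 47 of 20937 protein-coding genes (0.224%) and by the 3′ UTR of 163 of 21540 (0.757%). The 5′ match was in both ferritin chains and in ferroportin, and the 3′ UTR of Tfrc held 4 matches. In the other 6 members no such match was found in the UTRs. All 5 pairs were required, so that a hairpin with a bulge or a mismatch would be missed. These 6 members, Slc11a2 among them, are therefore not shown to lack an IRE.

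Per mouse the summed count was between 5152838 and 42231258, and a count above 0 was found for 12482 to 21100 genes. Under 16000 genes were detected in 3 mice, P9-ELS-19.2, P9-ELS-19.3 and P200-CTR-PBS-1.1, and their log2 CPM lay on average 1.31, 0.863 and 0.994 from their group's median, against 0.151 to 0.492 in the others. The highest of the others was P200-ELS-LPS-11.2 (group and the mouse's number in the labels). The 10 microglia markers summed to between 39286 and 91084 CPM in each mouse.

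In adult CTR mice given PBS the ferritins were by far the most abundant members per transcript length. Ftl1 had a mean of 1985 CPM per kb of canonical transcript and Fth1 of 1365, and their ranges over the 7 mice did not overlap. Slc40a1 (140.1 CPM per kb) and Slc11a1 (119 CPM per kb) followed, with ranges of 125 to 153 and 92.5 to 139 CPM per kb that overlapped. Hmox1 (22.4 CPM per kb, 12.5 to 31.4) and Slc11a2 (18.4 CPM per kb, 13.6 to 29.0) overlapped as well, as did Tfrc (3.58 CPM per kb, 2.30 to 5.25) and Cp (2.41 CPM per kb, 2.19 to 2.76). Hp was at 0.0192 CPM per kb, from 3 counts in 2 mice, and Lcn2 had no count.

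**Figure D1:**
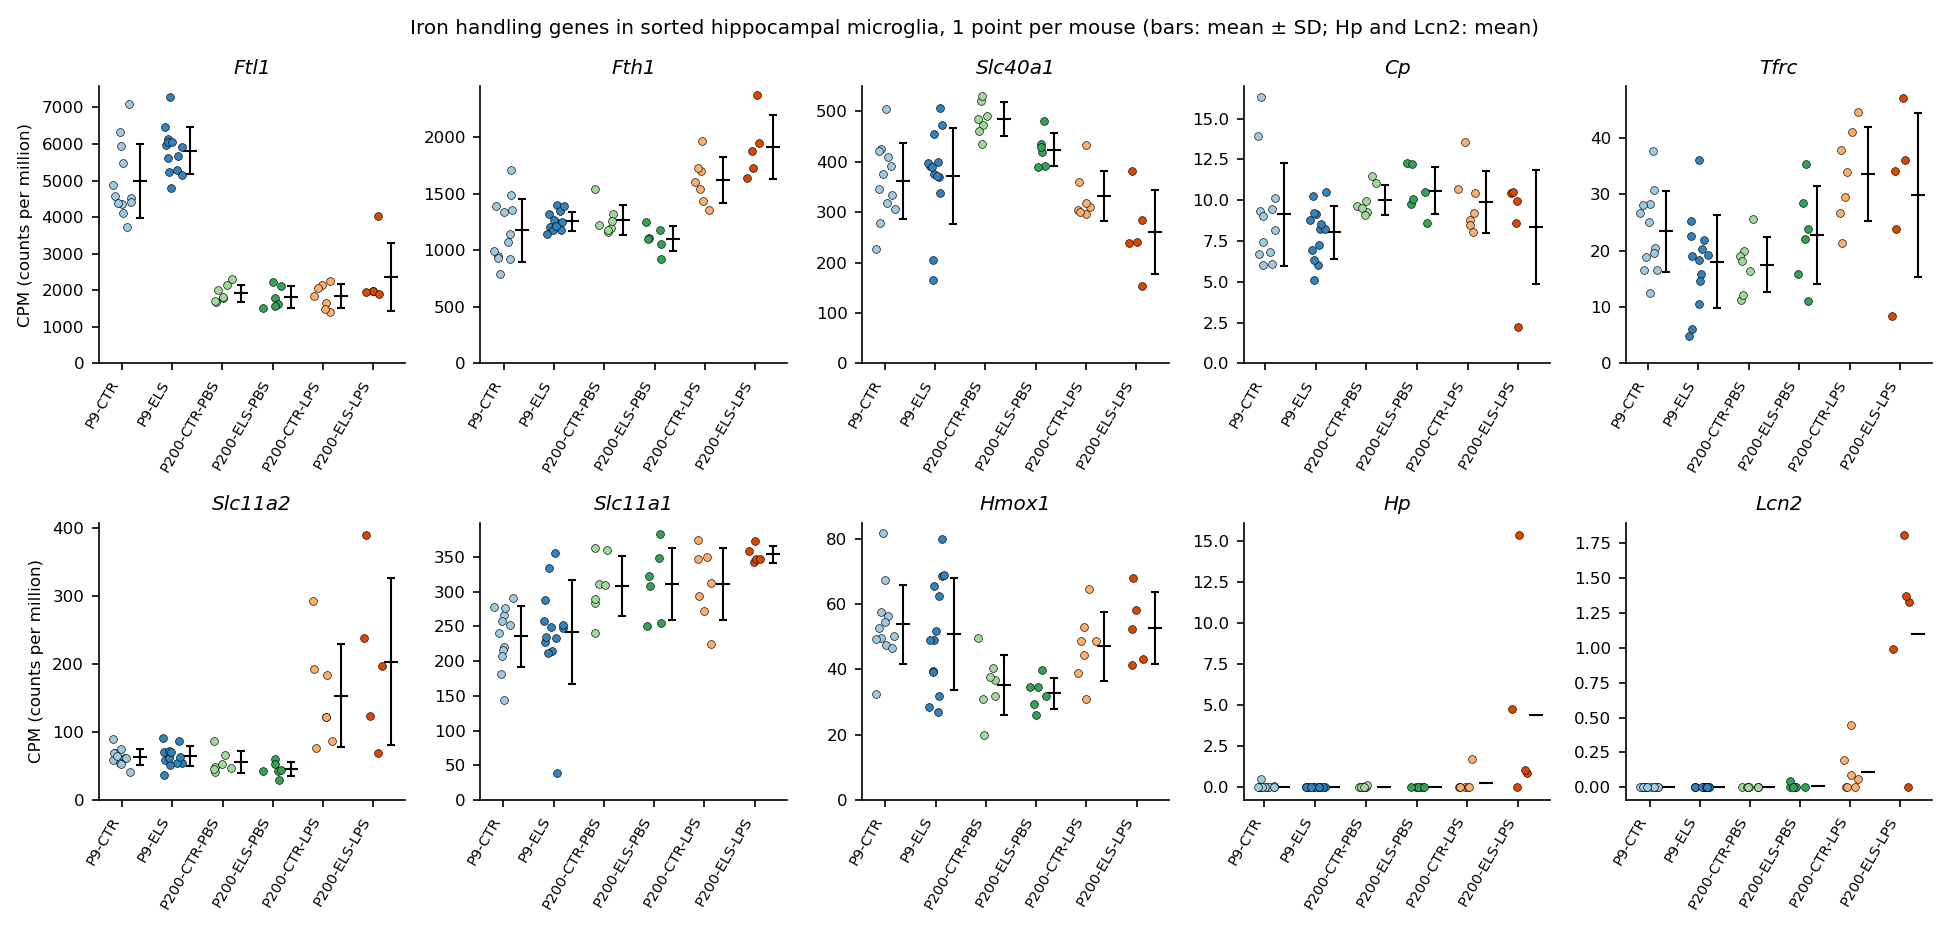
CPM of the 10 genes (y axis, linear, a separate scale for each gene) in the 6 groups (x axis), with 1 point per mouse and the group mean ± SD beside the points (for Hp and Lcn2 the mean only). Ftl1 is high at P9 and low at P200, Slc11a2 and Fth1 are highest and Slc40a1 lowest in the LPS groups, and 1 P200-ELS-LPS mouse lies apart from its group for Ftl1 and Cp.

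To determine how an inflammatory challenge altered iron handling, LPS-injected mice were compared with PBS-injected mice in each rearing condition. In CTR mice 4 members rose (Slc11a2, Tfrc, Fth1 and Lcn2) and 1 fell (Slc40a1), at an adjusted p under 0.05 in edgeR's quasi-likelihood test. Hp and Lcn2 could enter the test only by being high with LPS, and the counts and medians here include them unless stated. Over all genes tested, 8.73% were called higher and 6.2% lower. In ELS mice 5 members rose (Slc11a2, Fth1, Hmox1, Hp and Lcn2) and again Slc40a1 fell, against 7.4% of all genes higher and 4.94% lower. The median log2 fold change of the members was 0.38 in CTR and 0.54 in ELS mice, and that of all genes 0.00 and -0.04. Without Hp and Lcn2 the medians of the other 8 were 0.18 and 0.39. Of these 8, Slc11a2, Tfrc, Fth1 and Slc40a1 were called in CTR mice. In ELS mice Slc11a2, Fth1, Hmox1 and Slc40a1 were called. With the added requirement of an absolute log2 fold change above 1, 2 members (Slc11a2 and Lcn2) were called in CTR mice, against 9.62% of all genes. In ELS mice 3 were called (these and Hp), against 7.86%. Without Lcn2 and Hp, Slc11a2 alone was left in each condition. The CTR comparison depended on single mice: 3 members were called without CTR-LPS-1.2, CTR-LPS-1.3 or CTR-PBS-18.1. In the ELS comparison 3 were called without ELS-LPS-2.2, where Lcn2 and Hp no longer passed the filter on low counts. Counts summed per nest left 2 calls in CTR mice (Slc11a2 and Lcn2). The summed microglia markers were at 82985 to 91084 CPM with PBS and at 69340 to 85177 CPM with LPS. Of 8 astrocyte markers, Slc1a3 had means of 356 CPM with PBS and 549.6 CPM with LPS in CTR mice and of 387 and 515 CPM in ELS mice, and the others averaged under 5 CPM. The part of these markers in the results was not tested.

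**Figure D2:**
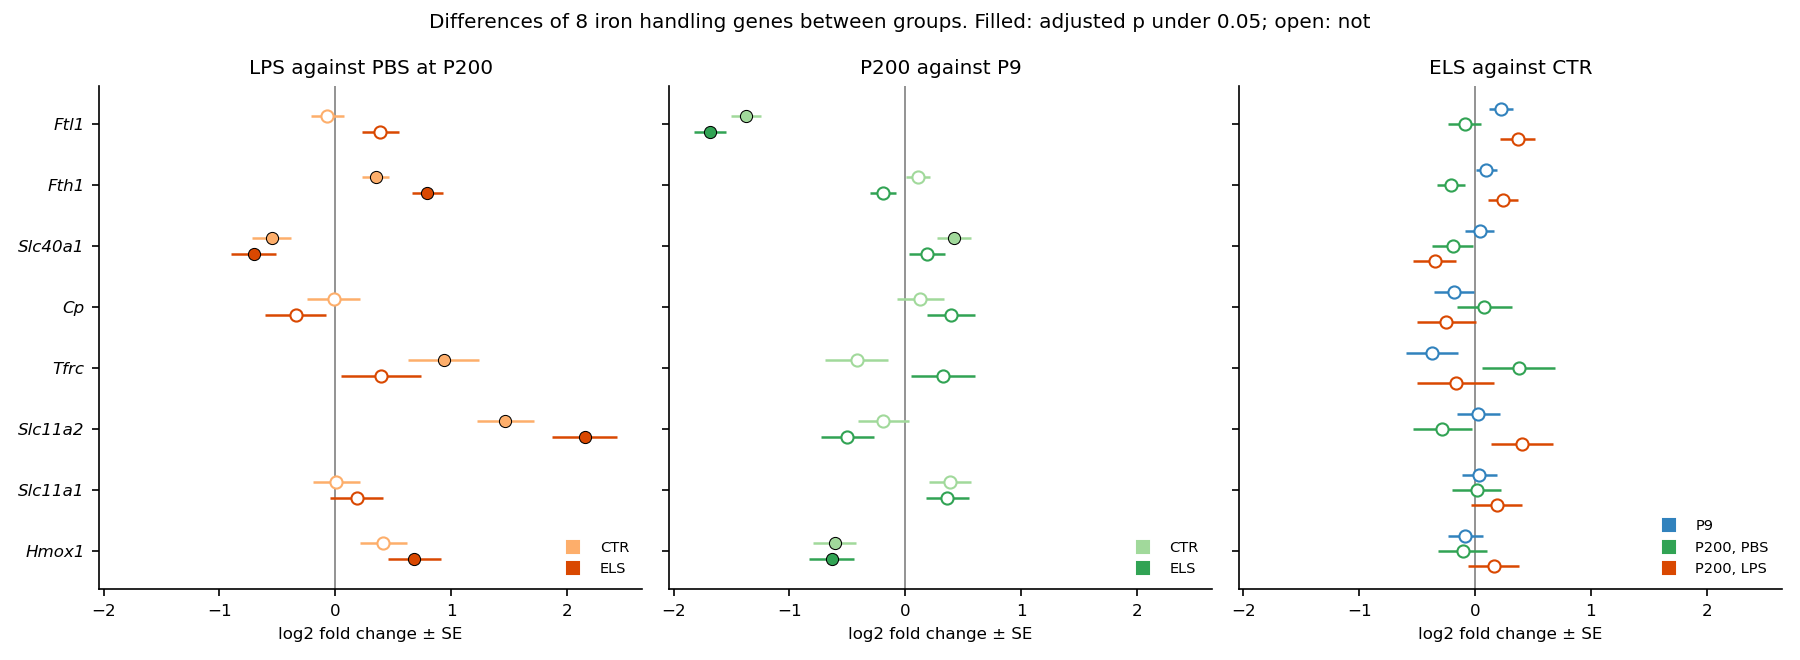
Log2 fold change ± SE (x axis) of the 8 members other than Hp and Lcn2 (y axis) for LPS against PBS, P200 against P9 and ELS against CTR, with filled points where the adjusted p was under 0.05 and open points where it was not. Slc11a2 has the longest shift to the right under LPS and Ftl1 the longest shift to the left with age, and every point of the ELS against CTR panel is open.

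Slc11a2 (ENSMUSG00000023030, chr15:100285776-100322953, minus strand) encodes DMT1, the proton-coupled carrier that brings ferrous iron across the endosomal or plasma membrane. It was at 41.3, 48.3 and 87.6 CPM (lowest, median and highest) in CTR-PBS and at 77.0, 122 and 292 CPM in CTR-LPS mice. Only CTR-PBS-1.1, at 87.6 CPM, reached into the range of the LPS group. The log2 fold change was 1.47 ± 0.25 (SE, adjusted p = 1.08e-05), a 2.77-fold rise, and 1.61 without the 3 mice of few detected genes. In ELS mice Slc11a2 was at 29.9, 44.0 and 59.9 CPM with PBS. With LPS it was at 197 CPM in mouse ELS-LPS-2.2, 124 in mouse ELS-LPS-4.2, 68.6 in mouse ELS-LPS-11.2, 239 in mouse ELS-LPS-17.3 and 391 in mouse ELS-LPS-20.1. All 5 values lay above those of the PBS group, with a log2 fold change of 2.16 ± 0.28 (adjusted p = 5.39e-08), a 4.45-fold rise, and of 2.38 without mouse ELS-LPS-11.2. Slc11a2 was called in each of the fits that left out 1 mouse in either comparison. It shares 8.37% of its exonic bases with Gm5475 on the opposite strand, whose part in its level was not tested.

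Slc40a1 (ENSMUSG00000025993, chr1:45947211-45965683, minus strand), the exporter ferroportin, was at 434, 484 and 531 CPM in CTR-PBS and at 296, 311 and 433 CPM in CTR-LPS mice. The groups did not overlap, though CTR-LPS-18.3 came within 2 CPM of the lowest PBS mouse. The log2 fold change was -0.55 ± 0.17 (adjusted p = 0.0188), a level 1.46-fold lower, and with counts summed per nest the adjusted p was 0.0682. Slc40a1 in ELS mice was at 390.1, 424 and 480.3 CPM with PBS and at 285, 382, 154, 242 and 239 CPM with LPS (mice ELS-LPS-2.2, ELS-LPS-4.2, ELS-LPS-11.2, ELS-LPS-17.3 and ELS-LPS-20.1). These groups did not overlap either, with a log2 fold change of -0.70 ± 0.19 (adjusted p = 0.00864). Mouse ELS-LPS-11.2 was the lowest, and without it the log2 fold change was -0.56 (adjusted p = 0.0486).

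Fth1 (ENSMUSG00000024661, chr19:9957911-9962462, plus strand) encodes the ferritin heavy chain, which oxidises iron for storage. It was at 1162, 1224 and 1543 CPM in CTR-PBS and at 1353, 1604 and 1961 CPM in CTR-LPS mice. CTR-PBS-1.1 was the highest of its group and lay above 2 of the LPS mice. The log2 fold change was 0.35 ± 0.12 (adjusted p = 0.0328). This call was lost without any 1 of 7 mice (CTR-LPS-1.2, CTR-LPS-1.3 and CTR-LPS-8.2, CTR-PBS-5.1, CTR-PBS-8.1, CTR-PBS-18.1 and CTR-PBS-18.2), with adjusted p from 0.0545 to 0.0932, but the difference was 0.40 (adjusted p = 0.00968) without CTR-PBS-1.1 and the 2 P9-ELS mice of few detected genes. It was also lost with no filter on low counts (adjusted p = 0.0677), with counts summed per nest (0.130) and with nest as a replicate block (0.0580). In ELS mice Fth1 was at 922, 1102 and 1249 CPM with PBS and at 1722, 1636, 2370, 1879 and 1945 CPM with LPS, in the order of mice above. Every LPS mouse was above every PBS mouse, with a log2 fold change of 0.80 ± 0.13 (adjusted p = 9.64e-06), and of 0.71 without mouse ELS-LPS-11.2.

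Ftl1 (ENSMUSG00000050708, chr7:45107367-45109308, minus strand), the light chain that helps to nucleate the iron core, did not pass the test under LPS in either condition. It was at 1692, 1809 and 2295 CPM in CTR-PBS and at 1416, 1834 and 2253 CPM in CTR-LPS mice, a log2 fold change of -0.07 ± 0.14 (adjusted p = 0.829). With ELS, Ftl1 was at 1512, 1706 and 2217 CPM with PBS, and with LPS at 1986, 1980, 4025, 1963 and 1893 CPM. Mouse ELS-LPS-11.2, at 4025 CPM, set the difference: the log2 fold change was 0.39 ± 0.16 (adjusted p = 0.0982) with it and 0.11 (adjusted p = 0.711) without it. The 3 members with a hairpin in the 5′ UTR thus had different values under LPS, with Fth1 called higher, Slc40a1 called lower and Ftl1 not called.

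Tfrc (ENSMUSG00000022797, chr16:32427556-32451612, plus strand), whose 3′ UTR held 4 hairpin matches, is the receptor that takes up iron-loaded transferrin. It was at 11.25, 18.18 and 25.7 CPM in CTR-PBS and at 21.3, 34.0 and 44.6 CPM in CTR-LPS mice. The groups overlapped only in CTR-LPS-5.3 and CTR-PBS-1.1. The log2 fold change was 0.94 ± 0.31 (adjusted p = 0.0293), a 1.92-fold rise. The call was lost without CTR-LPS-1.2 or CTR-LPS-15.2 or CTR-PBS-5.2 or CTR-PBS-18.1, with adjusted p from 0.0555 to 0.0674, and with counts summed per nest (adjusted p = 0.119). In ELS mice Tfrc was at 11.0, 22.9 and 35.4 CPM with PBS and at 34.1, 23.9, 8.41, 36.1 and 47.1 CPM with LPS, with mouse ELS-LPS-11.2 the lowest. The groups overlapped and the log2 fold change of 0.39 ± 0.34 did not pass the test (adjusted p = 0.528), nor did that of 0.63 without mouse ELS-LPS-11.2 (adjusted p = 0.260). The difference between the ELS and the CTR response was -0.54 ± 0.46 on the log2 scale (adjusted p = 0.964), so that a different response was not shown.

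Hmox1 (ENSMUSG00000005413, chr8:75820241-75827217, plus strand) releases iron, carbon monoxide and biliverdin from heme. It was at 19.7, 36.7 and 49.5 CPM in CTR-PBS and at 31.0, 48.6 and 64.7 CPM in CTR-LPS mice, which overlapped widely. The log2 fold change of 0.41 ± 0.20 did not pass the test (adjusted p = 0.181). Among ELS mice the values were 26.1, 33.1 and 39.8 CPM with PBS and 67.9, 43.0, 58.24, 52.22 and 41.4 CPM with LPS. Each LPS mouse was above each PBS mouse, and the log2 fold change was 0.68 ± 0.23 (adjusted p = 0.0397). The adjusted p was 0.0536 to 0.132 without any 1 of 8 mice, ELS-LPS-2.2, ELS-LPS-11.2 and ELS-LPS-17.3 and ELS-PBS-4.1, ELS-PBS-11.1, ELS-PBS-17.1, ELS-PBS-17.2 and ELS-PBS-20.2, and 0.0629 with no filter on low counts. For Hmox1 the ELS response differed from the CTR response by 0.27 ± 0.31 on the log2 scale (adjusted p = 0.972). A different response was therefore not shown.

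Slc11a1 (ENSMUSG00000026177, chr1:74414303-74425448, plus strand) encodes NRAMP1, which pumps metal ions out of the phagosome, and Cp (ENSMUSG00000003617, chr3:20011090-20063930, plus strand) ceruloplasmin, the ferroxidase that loads exported iron onto transferrin. C57BL/6 mice carry a loss-of-function allele of Slc11a1, so its transcript level does not report transport in this strain. Slc11a1 was at 241, 310.3 and 362 CPM in CTR-PBS and at 224, 312 and 374 CPM in CTR-LPS mice, a log2 fold change of 0.01 ± 0.20 (adjusted p = 0.993). In ELS mice it went from 251 to 383 CPM with PBS to 372, 343, 348, 358 and 347 CPM with LPS, and the log2 fold change of 0.18 ± 0.23 did not pass the test (adjusted p = 0.680). Cp stayed at low levels, with medians of 9.65 CPM in CTR-PBS and 9.23 CPM in CTR-LPS mice and a log2 fold change of -0.01 ± 0.23 (adjusted p = 0.989). In ELS mice Cp had a median of 10.3 CPM with PBS and was at 9.96, 8.60, 2.23, 10.4 and 10.5 CPM with LPS. The log2 fold change of -0.34 ± 0.26 (adjusted p = 0.457) was -0.10 without mouse ELS-LPS-11.2.

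Lcn2 (ENSMUSG00000026822, chr2:32274645-32278264, minus strand) and Hp (ENSMUSG00000031722, chr8:110301759-110305804, minus strand) were near the limit of detection. Hp encodes haptoglobin, which binds free hemoglobin. No count of Lcn2 was found in any P9 mouse or in CTR-PBS mice, and ELS-PBS mice had 1 count in all. In CTR-LPS mice there were 24 counts: 17 in mouse CTR-LPS-1.3, 4 in mouse CTR-LPS-8.3, 2 in mouse CTR-LPS-15.2 and 1 in mouse CTR-LPS-8.2. Against a floor of 3 counts over the 7 CTR-PBS mice, this was at least 8.47-fold higher, and at least 3.38-fold without CTR-LPS-1.3. In ELS-LPS mice there were 18 counts in mouse ELS-LPS-2.2, 16 in mouse ELS-LPS-11.2, 25 each in mice ELS-LPS-17.3 and ELS-LPS-20.1 and none in mouse ELS-LPS-4.2. Against the single count of the PBS group the ratio was 157, with an exact 95% interval from 27.4 to 6259 that covers counting error only. The level remained low, with a highest value of 0.445 CPM among CTR-LPS mice and of 1.81 CPM among ELS-LPS mice. The adjusted p of Lcn2 was 0.0254 in CTR and 0.00491 in ELS mice with edgeR, but 0.378 and 0.104 with DESeq2. In CTR mice it was 0.0771 without CTR-LPS-1.3 and 0.211 in an edgeR fit with nest as a replicate block.

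Hp had 3 counts in CTR-PBS mice (2 mice), none in ELS-PBS mice, and 13 in 2 P9-CTR mice. Among CTR-LPS mice it was found in mouse CTR-LPS-18.3 alone, with 24 counts (1.75 CPM). Summed over the group this was 8.47 times the CTR-PBS level, with an exact 95% interval from 2.57 to 43.9, but it rested on that mouse and was not called (adjusted p = 0.204). Of the ELS-LPS mice, mouse ELS-LPS-2.2 had 208 counts (15.3 CPM), mouse ELS-LPS-20.1 had 66 (4.77 CPM), mouse ELS-LPS-17.3 had 19 (1.04 CPM), mouse ELS-LPS-11.2 had 14 (0.865 CPM) and mouse ELS-LPS-4.2 none. Against a floor of 3 counts over the 6 ELS-PBS mice the group was at least 191-fold higher, and mouse ELS-LPS-2.2 alone held most of the counts. Without it the bound was 74.3-fold. The adjusted p was 0.00179 with edgeR and 0.108 with DESeq2.

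**Figure D3:**
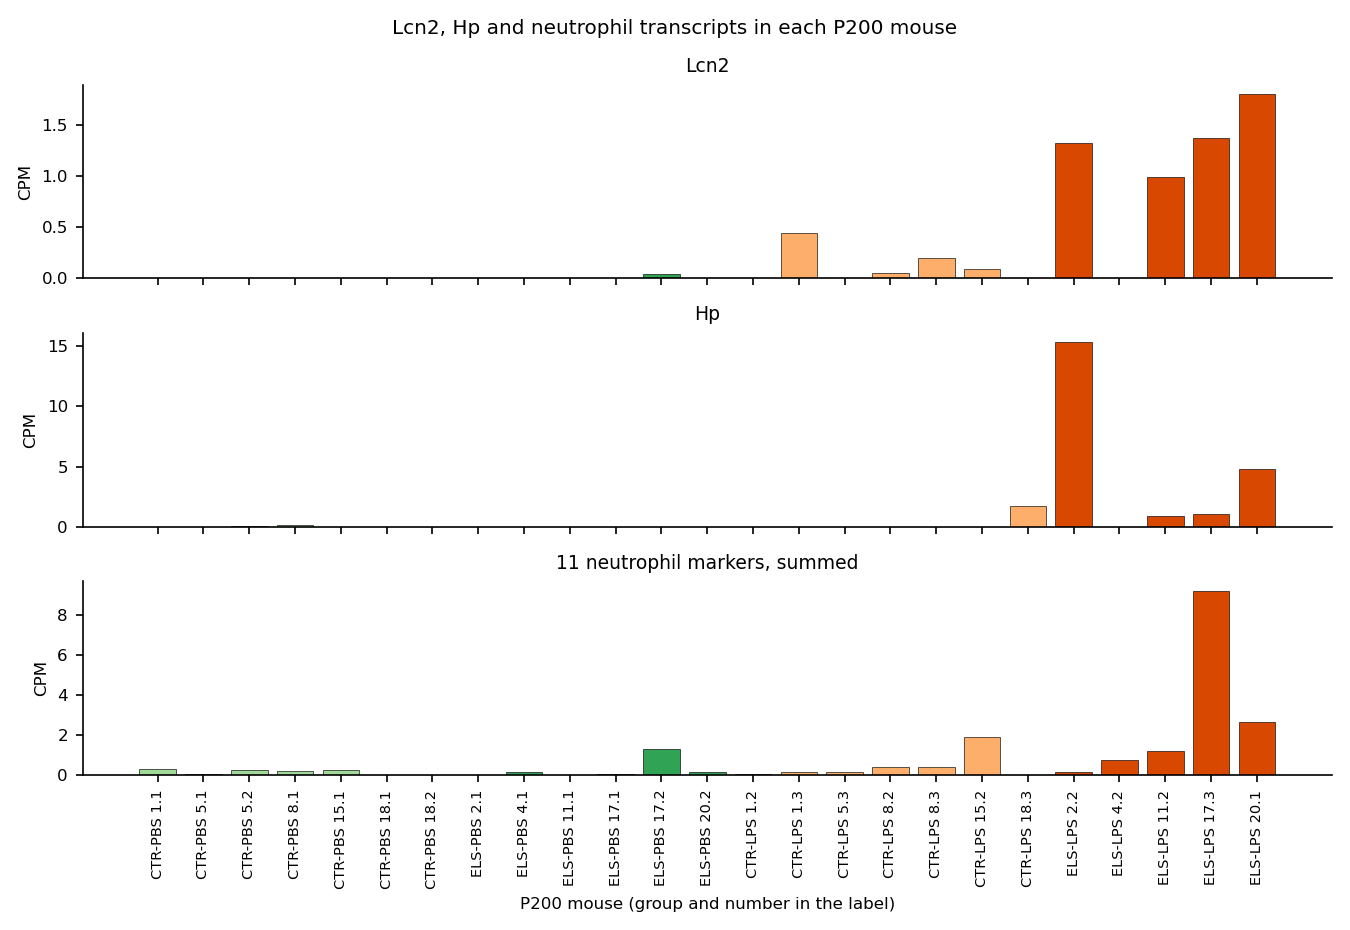
CPM (y axis, linear) of Lcn2, of Hp and of the sum of 11 neutrophil markers in each of the 25 P200 mice (x axis, by group and mouse number), 1 bar per mouse. The 3 measures are highest in different ELS-LPS mice: Lcn2 in ELS-LPS-20.1, Hp in ELS-LPS-2.2 and the neutrophil markers in ELS-LPS-17.3.

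Neutrophils are rich in Lcn2 and Hp. Their markers were measured beside these genes. Of 12 neutrophil markers, 11 had a mean under 1 CPM in each P200 group. Csf3r, which microglia also express, made up nearly all of the summed level of 246 to 502 CPM at P200. The other 11 markers summed to at most 1.29 CPM in PBS mice and at most 1.89 CPM in CTR-LPS mice. In ELS-LPS mice they summed to 0.148 CPM in mouse ELS-LPS-2.2, 0.761 in ELS-LPS-4.2, 1.24 in ELS-LPS-11.2, 9.22 in ELS-LPS-17.3 and 2.67 in ELS-LPS-20.1, and 4 of the 12 markers had no count in the group. The mouse with the most Hp, ELS-LPS-2.2, had the lowest sum of these markers in its group. The mice with the highest sums, ELS-LPS-17.3 and ELS-LPS-20.1, had the highest Lcn2 (1.37 and 1.81 CPM). ELS-LPS-2.2, with the lowest sum of the group, had Lcn2 at 1.33 CPM. Among CTR-LPS mice the highest sum, 1.89 CPM in CTR-LPS-15.2, went with Lcn2 at 0.0900 CPM. The highest Lcn2 there, 0.445 CPM in CTR-LPS-1.3, went with a sum of 0.157 CPM. Transcripts of hemoglobin, the ligand of haptoglobin, summed to under 3 CPM in all P200 mice but CTR-LPS-8.3 (28.5 CPM), in which Hp had no count. The part of these cells in the levels of Lcn2 and Hp was not tested.

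Next, adult PBS mice were compared with P9 mice of the same rearing to ask how iron handling differed between the neonatal and the adult brain. These PBS mice are also the controls of the LPS comparisons, which are therefore not independent of those with age. In CTR mice Ftl1 and Hmox1 fell and Slc40a1 rose, against a background of 26.6% of all genes lower and 17.4% higher. In ELS mice Ftl1 and Hmox1 fell and no member rose, against 25% of all genes lower and 42.2% called in either direction. A share of 2 in 10 is near these backgrounds, so the counts themselves say little about the members. With an absolute log2 fold change above 1 required, Ftl1 alone remained in both conditions, against 26.4% of all genes in CTR and 26.2% in ELS mice. Without the 3 mice of few detected genes, 4 members were called in ELS mice, with Slc11a1 higher (0.32, adjusted p = 0.0171) and Slc11a2 lower (-0.57, adjusted p = 0.0323). Slc11a1 was then called in CTR mice as well (0.44, adjusted p = 0.000870). Without mouse P9-ELS-19.2 alone, Slc11a2 was called in ELS mice (-0.55, adjusted p = 0.0451).

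Ftl1 was at 3718, 4549 and 7087 CPM (lowest, median and highest) in P9-CTR mice and at 1692, 1809 and 2295 CPM in P200-CTR-PBS mice. Every P9 mouse was above every adult, with a log2 fold change of -1.37 ± 0.13 (adjusted p = 1.86e-12), a level 2.59-fold lower in adults. Ftl1 of ELS mice went from 4791, 5907 and 7290 CPM at P9 to 1512, 1706 and 2217 CPM at P200, again with no overlap. There the log2 fold change was -1.69 ± 0.14 (adjusted p = 2.61e-14), a level 3.22-fold lower. Fth1, with which Ftl1 forms the ferritin shell, was not called: its median was 1111 CPM at P9 and 1224 CPM at P200 in CTR mice (log2 fold change 0.11 ± 0.10, adjusted p = 0.404), and 1236 and 1102 CPM in ELS mice (-0.19 ± 0.11, adjusted p = 0.158).

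The ratio of Ftl1 to Fth1 within a mouse, which cancels differences in library scaling, was 4.29 ± 0.37 (SD, n = 12) in P9-CTR and 4.62 ± 0.33 (n = 13) in P9-ELS mice. It was 1.52 ± 0.15 (n = 7) in P200-CTR-PBS and 1.64 ± 0.21 (n = 6) in P200-ELS-PBS mice. With LPS it was 1.14 ± 0.20 (n = 7) in CTR and 1.22 ± 0.29 (n = 5) in ELS mice. The lowest ratio at P9, 3.67, was above the highest at P200, 2.02, while PBS and LPS mice overlapped. The ferritin genes have processed pseudogenes that can share reads, but the 6 that the tables name summed to at most 0.371% of Ftl1 and 0.251% of Fth1 in any mouse.

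**Figure D4:**
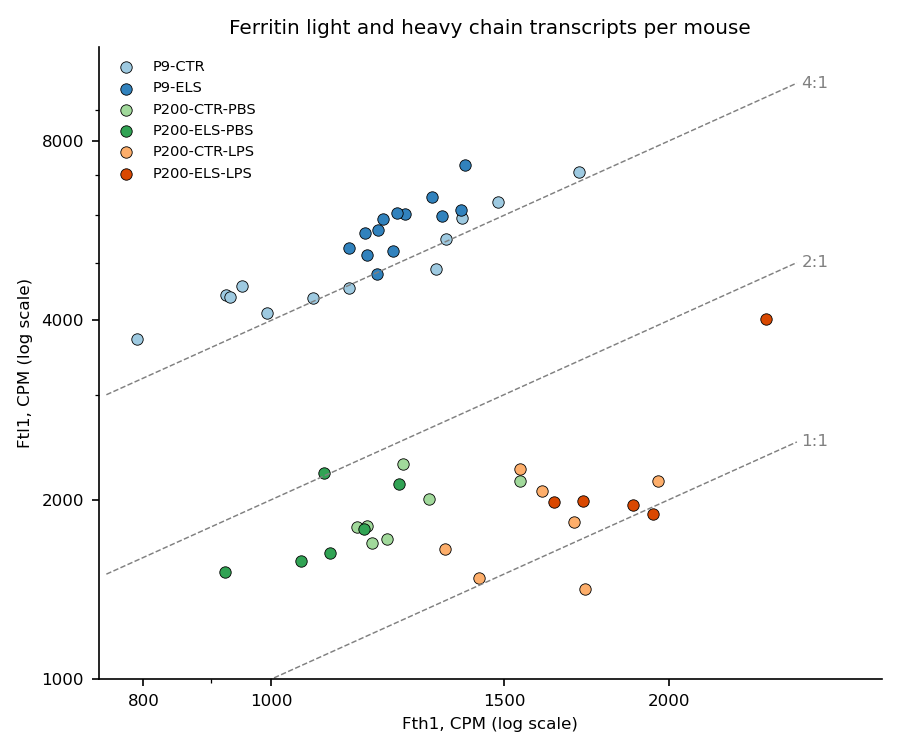
Ftl1 against Fth1 in each mouse (both axes CPM on a log scale), coloured by group, with dashed lines where the ratio is 1, 2 and 4. The 25 P9 mice lie at ratios of 3.67 or more and the 25 adults at 0.819 to 2.02, and mouse ELS-LPS-11.2 is highest among adults on both axes.

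Ftl1 shares 355 bases of its 969-base canonical transcript with Gm10252, an unverified transcript on the opposite strand, and the library kit's strand handling is not given in the sources used here. Counts of Gm10252 were 0.369 to 0.407 times those of Ftl1 in all 50 mice, so that reads of the pair cannot be told apart. Fth1 shares 338 bases with Gm36913, which was at 0.185 CPM or less.

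Hmox1 was at 32.4, 51.4 and 81.8 CPM in P9-CTR and at 19.7, 36.7 and 49.5 CPM in P200-CTR-PBS mice, which overlapped (log2 fold change -0.61 ± 0.18, adjusted p = 0.00602). In ELS mice it went from 26.8, 49.0 and 79.9 CPM to 26.1, 33.1 and 39.8 CPM (-0.63 ± 0.19, adjusted p = 0.00647). The adult LPS groups, with medians of 48.6 and 52.22 CPM, were within the range of the P9 mice. Slc40a1 was at 227, 360.2 and 505 CPM in P9-CTR and at 434, 484 and 531 CPM in P200-CTR-PBS mice (0.42 ± 0.15, adjusted p = 0.0164, and 0.0821 with counts summed per nest). In ELS mice it was at 166, 389 and 507 CPM at P9 and at 390.1, 424 and 480.3 CPM at P200 (0.19 ± 0.15, adjusted p = 0.337). The 2 lowest P9-ELS values, 166 and 205 CPM, were those of mice P9-ELS-19.2 and P9-ELS-19.3, and without the mice of few detected genes the difference in ELS mice was 0.06. The difference between the ELS and the CTR change with age was -0.24 ± 0.21 for Slc40a1 (adjusted p = 0.763), and -0.37 without those mice (adjusted p = 0.549).

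The remaining members were not called with age in the fit of all mice. In fits of the compared groups alone, Slc11a1 was called in CTR mice (adjusted p = 0.00609) and Slc11a2 in ELS mice (adjusted p = 0.0248), and with edgeR's own filter on low counts Slc11a1 in CTR mice (adjusted p = 0.0294). Tfrc had log2 fold changes of -0.42 ± 0.28 in CTR and 0.33 ± 0.28 in ELS mice, Cp of 0.13 ± 0.20 and 0.39 ± 0.21, Slc11a2 of -0.19 ± 0.22 and -0.50 ± 0.23, and Slc11a1 of 0.39 ± 0.18 and 0.37 ± 0.18. Without the mice of few detected genes Tfrc was at 0.16 in ELS and Slc11a2 at -0.33 in CTR mice. Mouse P9-ELS-19.2 was low for Slc11a1, at 38.8 CPM against 211 to 355 CPM in the others, and low for Tfrc, at 4.86 CPM. Lcn2 and Hp had too few counts at both ages for a fold change. The summed microglia markers were at 39286 to 71875 CPM at P9 and at 82985 to 91084 CPM in adult PBS mice. Markers of other cells also moved with age: the 7 markers of border-associated macrophages summed to 475 to 921 CPM at P9 and to 2.84 to 10.6 CPM in adult PBS mice, at P9 mostly from Mrc1, and 7 neuronal markers to 30.8 to 134 and 2.54 to 11.9 CPM. The 7 astrocyte markers other than Slc1a3 summed to 67.0 to 253 CPM at P9 and to 0.0509 to 16.3 CPM in adult PBS mice. Their part in the age differences was not tested. In bulk RNA, fewer cells of a type and less RNA per cell cannot be told apart.

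The study asked whether early-life stress alters microglia at P9, in adulthood and under challenge. None of the 10 members was called between ELS and CTR mice at P9, in adult PBS or in adult LPS mice with edgeR's quasi-likelihood test. The share of all genes called was 0% at P9, 0.168% with PBS and 0% with LPS. DESeq2, edgeR's likelihood-ratio test and limma voom also called no member. At an unadjusted p under 0.05 there were 2 members at P9 (Ftl1 and Hp), 0 with PBS and 3 with LPS (Ftl1, Hp and Lcn2), where 5.47%, 9.71% and 4.78% of all genes reached it. The P9 value of Hp rested on 13 counts in 2 P9-CTR mice. Both Hp and Lcn2 entered the tests only through LPS mice, and Lcn2 only through those with ELS. Among the 8 members other than Hp and Lcn2, the log2 fold changes lay between -0.37 ± 0.23 (Tfrc) and 0.22 ± 0.10 (Ftl1) at P9, between -0.28 ± 0.26 (Slc11a2) and 0.38 ± 0.32 (Tfrc) with PBS, and between -0.35 ± 0.18 (Slc40a1) and 0.40 ± 0.26 (Slc11a2) with LPS. These limits moved with single or few mice: Tfrc at P9 was at -0.21 without the mice of few detected genes, Slc40a1 with LPS at -0.21 without ELS-LPS-11.2 and -0.53 without ELS-LPS-4.2, and Slc11a2 with LPS at 0.03 without ELS-LPS-20.1 and 0.64 without CTR-LPS-8.2.

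With LPS, Ftl1 was 0.37 ± 0.15 higher on the log2 scale in ELS than in CTR mice (adjusted p = 0.879), but 0.09 without mouse ELS-LPS-11.2. Lcn2 had 84 counts in 5 ELS-LPS mice and 24 in 7 CTR-LPS mice, and Hp 307 and 24, with adjusted p = 0.862 for both genes. Lcn2 passed the filter on low counts only through ELS-LPS mice, as no CTR-LPS mouse was above 0.445 CPM. Its direction in this comparison was thus set by the filter. Hp passed through ELS-LPS mice and CTR-LPS-18.3. Neither of the tests of whether ELS altered a response called a member. For the LPS response the share of all genes called was 0%, and 3 members (Ftl1, Fth1 and Hp) had an unadjusted p under 0.05, as had 5.87% of all genes. Of these members, Hp entered the test only through LPS mice. For the age difference 0.0299% of all genes were called and 1 member (Fth1) had an unadjusted p under 0.05, as had 10.3% of all genes. DESeq2, the likelihood-ratio test and limma voom called none of the 10 in either test. The difference in the LPS response was 0.44 ± 0.18 for Fth1 (adjusted p = 0.652), 0.69 ± 0.37 for Slc11a2 (adjusted p = 0.880) and 0.46 ± 0.21 for Ftl1 (adjusted p = 0.797), the last of which was 0.18 without mouse ELS-LPS-11.2. That of Slc11a2 lay between 0.31 (without ELS-LPS-20.1) and 0.92 (without CTR-LPS-8.2).

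Beside the 10 members, 62 other genes of iron and heme handling in 8 role lists were followed, of which 47 were tested. With LPS, 5 rose and 3 fell in CTR mice, and 6 rose and 2 fell in ELS mice. The share called, 17.0% in both conditions, was near that of all genes, 14.9% in CTR and 12.3% in ELS mice. Their median log2 fold change was -0.06 and 0.02, beside 0.00 and -0.04 over all genes. None of the 47 was called between ELS and CTR at any stage or in either interaction. With age 9 rose and 15 fell in CTR mice, and 8 rose and 13 fell in ELS mice, a share of 51.06% and 44.7% beside 44.1% and 42.2% of all genes.

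Among the 7 tested genes of iron uptake and reduction, 2 rose with LPS in each condition and none fell. Over all genes, 8.73% were called higher and 6.2% lower in CTR mice, and 7.4% and 4.94% in ELS mice. None lower among 7 genes is thus near the background. Slc39a14 (ZIP14), a carrier of ferrous and zinc ions, went from 13.4 ± 5.0 to 66.3 ± 10.9 CPM in CTR mice (log2 fold change 2.30 ± 0.32, adjusted p = 1.41e-07) and from 11.9 ± 2.9 to 68.2 ± 29.6 CPM in ELS mice (2.52 ± 0.35, adjusted p = 2.95e-07). The other was the ferrireductase Steap4, named after its values were seen, which had no count in PBS mice of either condition and 294 and 271 counts in CTR-LPS and ELS-LPS mice. Like Hp and Lcn2, it passed the filter only through LPS mice and could only be called higher. With age Steap3, the ferrireductase of the transferrin cycle, fell by 2.30 ± 0.48 on the log2 scale in CTR mice, and in ELS mice from 10.9 ± 4.8 to 1.64 ± 1.38 CPM. Slc39a8 (ZIP8) fell from 169 ± 32 to 60.4 ± 11.8 CPM in CTR mice, and Slc39a14 rose with age from 6.05 ± 1.58 to 13.4 ± 5.0 CPM.

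Of the 5 iron sensing and regulatory genes, Bach1 and Nfe2l2 rose with LPS in both conditions and none fell. Over all genes, 8.73% were called higher and 6.2% lower in CTR mice, and 7.4% and 4.94% in ELS mice. None lower among 5 genes is near that background as well. Bach1, the heme-binding repressor of Hmox1 and of the ferritin genes, went from 75.1 ± 10.1 to 509 ± 233 CPM in CTR mice (2.76 ± 0.25, adjusted p = 8.57e-13) and from 64.1 ± 15.5 to 528 ± 258 CPM in ELS mice (3.04 ± 0.28, adjusted p = 1.82e-12). Nfe2l2 (NRF2), the activator that competes with it, rose from 301 ± 19 to 465.6 ± 114.8 CPM in CTR mice (0.63 ± 0.14, adjusted p = 0.000838) and from 261 ± 21 to 456 ± 102 CPM in ELS mice (0.80 ± 0.16, adjusted p = 0.000176). Nfe2l2 also rose with age, from 138 ± 16 to 301 ± 19 CPM in CTR mice, as did Bach1 (46.1 ± 7.0 to 75.1 ± 10.1 CPM). Fbxl5, an iron sensor that removes an iron regulatory protein, rose as well (72.8 ± 11.5 to 116 ± 27 CPM). In ELS mice Nfe2l2 and Fbxl5 were called higher with age and Bach1 was not called. The remaining genes of this list, the iron regulatory proteins Aco1 and Ireb2, were not called with LPS or with age in either condition.

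Of the 4 tested ferritin partners, Ncoa4, the receptor that delivers ferritin to lysosomes for iron release, fell with LPS from 112 ± 12 to 83.3 ± 13.7 CPM in CTR mice (-0.43 ± 0.14, adjusted p = 0.0301). In ELS mice it fell from 117 ± 15 to 70.5 ± 19.4 CPM (-0.73 ± 0.16, adjusted p = 0.000897). Pcbp1, an iron chaperone for ferritin, rose in ELS mice (0.48 ± 0.16, adjusted p = 0.0407) and was not called in CTR mice, and 82.4% of its exonic bases are shared with 1600020E01Rik on the opposite strand. With age Ncoa4 and Pcbp2 fell in both conditions, Pcbp2 by 0.66 ± 0.13 on the log2 scale in CTR and by 0.88 ± 0.14 in ELS mice. Of the 10 other tested genes of heme uptake and breakdown, only Hmox2 was called with LPS, lower in CTR mice (-0.47 ± 0.17, adjusted p = 0.0471), and most of its exonic bases are shared with Cdip1 on the opposite strand. Over all genes, 14.9% were called in CTR and 12.3% in ELS mice, so that the counts in this list are near the background. With age Slc46a1, a heme and folate carrier, rose from 136 ± 32 to 230.1 ± 30.8 CPM in CTR mice (54.8% of its exonic bases are shared with Sarm1 on the opposite strand), and Blvrb, a biliverdin reductase, fell from 49.6 ± 9.1 to 33.0 ± 10.0 CPM.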

How the data were processed

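Sorted hippocampal microglia of 50 mice were sequenced as poly-A RNA. The authors deposited 1 table of raw read counts per gene and mouse, made with HTSeq 0.11.0 after bcl2fastq 2.20 and cutadapt 2.10, on GRCm39, per the submitters' processing notes. The annotation release and the strand setting of the counting are not given in the sources used here. Libraries came from a low-input kit. Summed counts per mouse ranged from 5152838 to 42231258, which sets the precision of Lcn2 and Hp in particular. Counts of every 2 replicates differed beyond sampling noise. Intervals and floors of 3 counts cover counting error only.

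Genes with at least 1 CPM, on unscaled library totals, in at least 3 mice (16696 of 53700) were kept. From the counts, CPM on libraries scaled by TMM was computed, and the genes were tested with edgeR 4.0.16 (quasi-likelihood F test, R 4.3.3) in 1 model of 6 group means over all mice. P-values were adjusted over all genes tested (Benjamini-Hochberg), and a gene was called at an adjusted p under 0.05. The study's added requirement of a log2 fold change above 1 in size was an alternative, as were DESeq2 1.42.0, limma 3.58.1 and those of the closing section. The script was checked on simulated counts. The 10 members are named in each comparison. Of each role list up to 3 called genes with the largest change and a mean log2 CPM of at least 1 are candidates to be named, and the rest are counts; some genes that this rule would name are not reported here. Members, role lists and marker lists were chosen with earlier results of these data known. Gene and UTR positions came from GENCODE M39 on GRCm39, in which 52610 of 53700 identifiers were found. Mouse numbers have a point, and the leading part, not defined in the labels, was treated as the nest, with separate series at P9 and P200. The p-values treat mice of 1 nest as separate.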

Additional observations from a re-analysis of the deposited data

Results flagged for a closer look

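In 38 groups of 5 to 7 P200 mice with values above 0 for a member, a single mouse stood apart from the rest of its group in 6 cases, by the gap to the nearest mouse relative to the group's range. Chance alone would give about 1 such case in 20 groups of continuous values, a rate that does not hold for the 3 cases of Hp and Lcn2, where most mice of the group had no count. In ELS-LPS-11.2, Ftl1 was at 4025 CPM against 1893 to 1986 CPM in the other 4 mice, and Cp at 2.23 CPM against 8.60 to 10.5 CPM. The same mouse was lowest of its group for Tfrc, Slc40a1 and Slc11a2 and highest for Fth1. CTR-PBS-1.1, in which few genes were detected, had Fth1 at 1543 CPM against 1162 to 1317 CPM in the others. Hp was at 1.75 CPM in CTR-LPS-18.3 and had no count in the other 6, and it was at 0.142 CPM in CTR-PBS-8.1, from 2 counts, against at most 0.0389 CPM. Lcn2 was at 0.0479 CPM in ELS-PBS-17.2, from 1 count, with none in the other 5.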

How the results depend on the processing

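Over 998 fold changes of members under the alternatives, 972 kept their direction or their lack of a call, 20 lost and 6 gained a call, and no called value changed sign. Requiring a log2 fold change above 1 in size left 1 member called with age in CTR and 1 in ELS mice. With LPS it left 2 in CTR and 3 in ELS mice, among them Lcn2 and, in ELS mice, Hp. Leaving out the mice with fewer than 16000 genes detected gave 4 with age in ELS mice, and counts summed per nest gave 2 with LPS in CTR mice. With nest as a replicate block, 3 members were called with LPS in CTR mice (Fth1 and Lcn2 were lost), 6 in ELS mice and 0 in the interaction. Deviations of the PBS and the LPS mice of 1 nest correlated at -0.14 to 0.19 over 10 nests at P200, so that the numbers were not shown to pair these mice. The P9 nests were not compared in this way. At P9, Ftl1 was at 5938 to 7087 CPM in CTR nest 51 and at 3718 and 4111 CPM in CTR nest 58. In ELS nest 19 it spread from 4791 to 7290 CPM. Leaving out 1 mouse at a time gave 3 to 5 members with LPS in CTR, 3 to 6 in ELS, 3 with age in CTR, 2 to 3 in ELS and 0 in all comparisons of ELS with CTR and both interactions. The cause of these losses was not tested, except that Hp and Lcn2 fall below the low-count filter in some fits. DESeq2's size factors changed no count of members. Depth limits Lcn2 and Hp, whose calls were lost with DESeq2.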

Other observations

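Among the 9 genes of heme synthesis, Ppox, the enzyme before the last step, rose with LPS from 49.3 ± 13.5 to 394 ± 108 CPM in CTR mice (log2 fold change 3.00 ± 0.27, adjusted p = 5.11e-13) and from 53.25 ± 10.22 to 380.3 ± 96.9 CPM in ELS mice (2.84 ± 0.29, adjusted p = 6.90e-11). Ppox shares 40.8% of its exonic bases with B4galt3 on the opposite strand, which went from 66.7 ± 9.8 to 828 ± 248 CPM in CTR mice and from 65.6 ± 12.7 to 795 ± 261 CPM in ELS mice. Reads of the 2 genes cannot be told apart without strand, and the part of B4galt3 in the level of Ppox was not tested. Alad, which joins the first intermediates of the pathway, fell in CTR mice (-0.72 ± 0.25, adjusted p = 0.0443) and Fech, which inserts iron into heme, in ELS mice (-0.75 ± 0.21, adjusted p = 0.0104). With age Cpox rose in both conditions. None of the 9 genes of mitochondrial iron and iron-sulfur clusters was called with LPS in either condition. Of all genes tested, 14.9% were called in CTR and 12.3% in ELS mice, so that among 9 genes a count of 0 is near the background. With age 0 of them was called in CTR and 3 in ELS mice, where 44.1% and 42.2% of all genes were called, and this difference between conditions was not called in the interaction (0 of 9).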
